A study of Mus musculus with 18 samples.

Results

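The mitochondrial ribosomal protein genes were followed across the substantia nigra of intact, AAV-GFP and AAV-SIRT3 mice. They were chosen by symbol as the rows named Mrpl (large subunit) or Mrps (small subunit) followed by a number, which gave 78 of the 55270 genes in the table, 49 Mrpl and 29 Mrps. The rule reads the symbol alone. The substantia nigra is the midbrain region whose dopaminergic neurons project to the striatum, and polyadenylated RNA from it was sequenced in 18 libraries, 6 per group. Intact mice are labelled wild type (WT) with no treatment named. Both treated groups received an adeno-associated virus (AAV), which carried green fluorescent protein (AAV-GFP) or SIRT3 (AAV-SIRT3) for overexpression. All mice were 3 months old, and for the treated groups that was a month after the virus. Strain, sex, virus serotype, promoter, dose and the species of the SIRT3 sequence are not given in the sources used here, nor is a sham injection for the intact group, so injection, virus and transgene cannot be told apart when a treated group is set against intact mice. Each library is labelled as a separate sample, and nothing says that each came from a separate mouse other than the stated 6 mice per group.

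Mitochondrial ribosomes translate the few messages encoded by mitochondrial DNA, all of which specify subunits of the respiratory chain and ATP synthase. Their ribosomal RNAs are mitochondrial, but every one of their proteins is encoded in the nucleus, made in the cytosol and imported, so building the particle needs both genomes. Part of the proteins descend from bacterial ribosomal proteins and part are found only in mitochondria. SIRT3 is the main deacetylase of the mitochondrial matrix, and MRPL10, a protein at the base of the large subunit's stalk, is one of its known substrates. Only transcripts were measured here, so acetylation, protein levels and translation are outside these data.

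Values are reads per gene divided by a size factor of the library (normalised reads), and fold changes are differences of log2(value + 1), tested with limma. Depth ran from 47182529 to 64728587 reads per library and was alike in the groups. The targeted gene, Sirt3, had normalised reads of 1824 ± 66.4 for intact, 1775 ± 92.4 for AAV-GFP and 1937 ± 79.4 for AAV-SIRT3 mice (SD, n = 6), and neither the rise over intact (limma adjusted p = 0.148) nor that over AAV-GFP (limma adjusted p = 0.183) passed the threshold. Whether reads from the viral transgene count toward that row is not given, and group names below are those of the labels. Markers of dopaminergic neurons were present in all libraries, with a summed level over 9 genes of 40340 to 55220 in intact, 35610 to 46360 in AAV-GFP and 41310 to 48830 in AAV-SIRT3 mice. In this bulk tissue, fewer cells of a type and less RNA per cell cannot be told apart. AAV-GFP replicate 2 and AAV-SIRT3 replicates 5 and 6 stood apart in how their levels followed transcript length, and results that rest on them are given with and without them below.

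Transcripts of the mitochondrial ribosome were more abundant in AAV-SIRT3 than in intact mice, and AAV-GFP mice lay between. Of the 77 members that passed the filter on low values, 46 rose against intact and 0 fell at a Benjamini-Hochberg adjusted p under 0.05, beside 11.3% of all 19443 genes tested called higher and 10.3% called lower. Among the Mrpl genes 31 of 48 rose and among the Mrps genes 15 of 29. The rises were small. The median log2 fold change over the members was 0.17, or 12.7% higher, beside -0.00486 over all genes tested, and 74 of 77 members had a value above 0, beside 49.1% of all genes. For 26 of 77 members the lowest AAV-SIRT3 library exceeded the highest intact library, which held for 5.01% of all genes tested.

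Neither comparison with AAV-GFP mice gave a called member. Against AAV-GFP, 0 members were higher or lower in AAV-SIRT3 mice (0.036% of all genes were called higher and 0.0771% lower), although 27 of 77 had an unadjusted limma p under 0.05, all of them higher, beside 8.13% of all genes. The median log2 difference was 0.09, and 71 of 77 members lay above 0, beside 48.6% of all genes. DESeq2 on recovered reads called 3 members higher here (0.813% of all genes) and edgeR called 0. Between AAV-GFP and intact, 0 members were called in either direction (0.823% of all genes were called higher and 1.02% lower). At an unadjusted p under 0.05, 23 were higher and 0 lower, beside 9.59% of all genes higher. The median log2 difference was 0.08, 66 of 77 members lay above 0, beside 50.2% of all genes, and 1 member, Mrpl15, had no overlap between the groups (0.874% of all genes). DESeq2 called 3 members higher there (2.31% of all genes) and edgeR 0. Each pair of comparisons shares a group of libraries, so their values are not independent of each other.

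Summed over the members, the share of all reads was 0.208% ± 0.00246 for intact, 0.219% ± 0.0135 for AAV-GFP and 0.231% ± 0.0105 for AAV-SIRT3 mice (SD, n = 6). The mean log2 level of the 48 Mrpl genes, set to 0 at the intact mean, ran from -0.02 to 0.04 in intact, from 0.02 to 0.24 in AAV-GFP and from 0.13 to 0.30 in AAV-SIRT3 libraries. For the 29 Mrps genes the same ranges were -0.02 to 0.01, 0.02 to 0.21 and 0.11 to 0.23. Intact and AAV-SIRT3 libraries did not overlap for either group of symbols, and AAV-GFP replicate 2 was the one AAV-GFP library that reached the AAV-SIRT3 range.

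**Figure D1:**
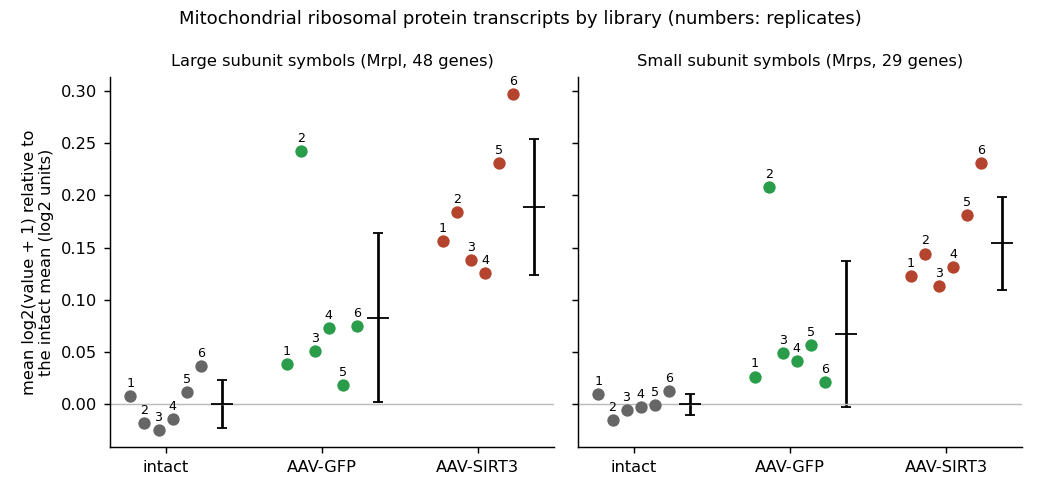
Mean log2(value + 1) over the 48 genes with Mrpl and the 29 with Mrps symbols in each of 18 libraries, relative to the intact mean. Points are libraries, numbers are replicates and bars are the mean ± SD of 6. Intact libraries lie near 0, AAV-SIRT3 libraries lie above all intact libraries, and AAV-GFP replicate 2 (0.24 and 0.21) stands above the other AAV-GFP libraries.

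Levels differed widely between members. Per kilobase of transcript, which allows genes of unlike length to be compared, the intact mean ran 19.1-fold, from 203.6 normalised reads for Mrpl17 to 3891 for Mrpl42, with a median of 975.3. The median of the Mrpl genes was 1054 and that of the Mrps genes 825.5 per kilobase. In intact libraries the highest 5 were Mrpl42 (mean 3891 per kilobase), Mrps21 (2911), Mrpl41 (2627), Mrpl20 (2293) and Mrps18a (2238), with Mrpl52 next at 2142. The lowest 5 were Mrpl17 (203.6), Mrpl19 (250.6), Mrps35 (255.7), Mrpl47 (257.3) and Mrps25 (268.6). These values rest on one annotated transcript per gene, all 5 of the lowest have long transcripts, from 3364 bases for Mrpl47 to 7300 for Mrpl17, and how far the choice of transcript sets their order was not tested. Mrpl53 was listed at 0 in all 18 libraries and was not tested. In GENCODE M21 it overlaps Gm42688 on its own strand and Ccdc142os on the other.

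The members lie on 17 chromosomes. Since many move together, the bases around their RefSeq starts were read for motifs. The motifs are those of factors known to bind promoters of nuclear genes for mitochondrial proteins. They were NRF1 (GCGCA, any base, GCGC), the ETS family (CCGGAAG), which includes GABPA, and YY1 (AANATGGC), each on both strands. The 150 bases before the RefSeq start are shown for 2 stalk genes, Mrpl10 and Mrpl12, the membrane anchor gene Mrpl45, the exit tunnel gene Mrpl22, the Mrpl gene with the largest rise, Mrpl52, and Mrps22, which did not change detectably. They are from RefSeq (GRCm38), 5′ to 3′ on the gene's strand, with each match in capitals. RefSeq and GENCODE M21 starts can differ. GENCODE exons cover 22 of the 150 bases for Mrpl10, 24 for Mrpl12 and 3 for Mrpl22. For some members not shown, such as Mrpl11, they cover all 150. The positions are chr11:97041432-97041581 for Mrpl10, chr11:120484487-120484636 for Mrpl12, chr11:97315566-97315715 for Mrpl45, chr11:58171514-58171663 for Mrpl22, chr14:54426759-54426908 for Mrpl52, all on the plus strand, and chr9:98601680-98601829 on the minus strand for Mrps22.
Mrpl10: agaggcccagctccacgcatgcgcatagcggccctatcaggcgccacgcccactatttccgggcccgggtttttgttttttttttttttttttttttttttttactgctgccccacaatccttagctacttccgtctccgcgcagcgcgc
Mrpl12: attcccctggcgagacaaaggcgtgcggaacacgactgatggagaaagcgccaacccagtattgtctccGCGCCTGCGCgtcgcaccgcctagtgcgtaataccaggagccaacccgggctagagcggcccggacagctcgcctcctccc
Mrpl45: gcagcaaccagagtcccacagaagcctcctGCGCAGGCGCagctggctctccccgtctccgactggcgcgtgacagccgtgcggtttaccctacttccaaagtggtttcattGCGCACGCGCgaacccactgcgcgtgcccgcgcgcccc
Mrpl22: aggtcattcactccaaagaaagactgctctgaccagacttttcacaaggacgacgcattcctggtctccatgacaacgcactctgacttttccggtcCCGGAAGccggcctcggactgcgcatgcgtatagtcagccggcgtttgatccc
Mrpl52: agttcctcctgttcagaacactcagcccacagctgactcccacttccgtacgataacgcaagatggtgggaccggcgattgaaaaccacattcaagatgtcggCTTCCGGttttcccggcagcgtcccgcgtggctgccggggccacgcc
Mrps22: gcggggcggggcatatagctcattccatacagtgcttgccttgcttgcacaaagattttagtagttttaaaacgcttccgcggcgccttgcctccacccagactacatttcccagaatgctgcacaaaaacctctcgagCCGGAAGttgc
Mrpl12 and Mrpl45 hold NRF1 letters, and Mrpl22, Mrpl52 and Mrps22 hold ETS letters, while the Mrpl10 window holds none of the 3 motifs. Over the 300 bases from 250 before to 50 after the start, 69 members had a RefSeq sequence. NRF1 letters stood in 13 of them (18.8%, beside 9.02% of 12010 protein-coding genes tested), ETS letters in 25 (36.2% beside 16.1%) and YY1 letters in 21 (30.4% beside 7.78%). At least 1 of the 3 was found in 46 of 69 members (66.7%), beside 28.7% of the protein-coding genes tested. GGGCGG, the letters bound by SP1, stood in 33 (47.8%), beside 62.0%. Among the members that rose against intact 30 of 43 held one of the first 3 motifs (69.8%), and among the other members 16 of 26 (61.5%). A match is a description of letters and not evidence of binding.

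The large subunit's stalk, where translation factors dock and are triggered to split GTP, held 3 named genes called higher than intact. The differences between their changes were not tested. Mrpl12, whose protein also binds the mitochondrial RNA polymerase, lies at chr11:120484613-120489065 (GRCm38, plus strand). Its normalised reads were lowest, median and highest at 2120, 2278 and 2518 in intact, at 2412, 2645 and 2859 in AAV-GFP and at 2706, 2791 and 3232 in AAV-SIRT3 libraries. All AAV-SIRT3 libraries stood above all intact ones, and the log2 fold change was 0.32 ± 0.06 (SE, limma adjusted p = 0.00101). Mrpl11, whose protein lies at the stalk base, ran 1409, 1588 and 1628 in intact, 1578, 1720 and 1902 in AAV-GFP and 1698, 1878 and 2163 in AAV-SIRT3 libraries. It rose by 0.28 ± 0.06 (adjusted p = 0.00211), again with no overlap between intact and AAV-SIRT3.

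Mrpl10, the transcript of the SIRT3 substrate, lies at chr11:97041560-97049213 on the plus strand. Its reads were 2021, 2145 and 2265 at the lowest, median and highest in intact, 1983, 2168 and 2266 in AAV-GFP and 2206, 2328 and 2531 in AAV-SIRT3 libraries. The AAV-SIRT3 values overlapped both other groups. Against intact the log2 fold change was 0.13 ± 0.04 (limma adjusted p = 0.0422), a call that was kept in 10 of 18 fits without 1 library and missed with edgeR, with quantile normalisation, with no filter on low values and after removal of the length and GC trend. Against AAV-GFP the difference was 0.12 ± 0.04 (adjusted p = 0.216), and AAV-GFP differed from intact by 0.01 ± 0.04 (adjusted p = 0.944). In the same comparison with AAV-GFP, Mrpl11 had 0.14 ± 0.06 (limma adjusted p = 0.253) and Mrpl12 0.14 ± 0.06 (limma adjusted p = 0.26).

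Around the tunnel through which new proteins leave, Mrpl22 ran 612.8, 718.9 and 820.2 in intact, 738.9, 779.3 and 871.7 in AAV-GFP and 788.1, 911.4 and 967.8 in AAV-SIRT3 libraries. It rose by 0.33 ± 0.07 over intact (adjusted p = 0.00231), and 35 of the 36 pairs of an intact and an AAV-SIRT3 library were in that order. Mrpl45, which holds the ribosome to the inner membrane, ran 1914, 2037 and 2060 in intact, 2040, 2079 and 2406 in AAV-GFP and 2071, 2321 and 2354 in AAV-SIRT3 libraries. Its rise of 0.17 ± 0.04 (adjusted p = 0.0112) was smaller, yet intact and AAV-SIRT3 did not overlap.

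Members of the large subunit found only in mitochondria included the largest Mrpl rises. Mrpl52 ran 813.2, 885.6 and 1013 in intact, 873.8, 1016 and 1257 in AAV-GFP and 975.1, 1105 and 1511 in AAV-SIRT3 libraries, a rise of 0.36 ± 0.09 over intact (adjusted p = 0.0092) with one of the 3 largest spreads within groups. Mrpl54 ran 929, 977 and 1018 in intact, 934, 1011 and 1236 in AAV-GFP and 1068, 1237 and 1398 in AAV-SIRT3 libraries, and its rise was 0.34 ± 0.07 (adjusted p = 0.00214). AAV-SIRT3 stood clear of intact for Mrpl54 and overlapped AAV-GFP. The abundant Mrpl42 and Mrpl41 rose by 0.27 ± 0.06 (adjusted p = 0.00232) and 0.30 ± 0.07 (adjusted p = 0.00325). Mrpl44, mutated in a human cardiomyopathy of mitochondrial origin, rose by 0.19 ± 0.06 (adjusted p = 0.0207) with no overlap with intact.

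Mrpl20, which has a bacterial counterpart and is among the most abundant members, came closest to the threshold against AAV-GFP. Its reads were 1689, 1758 and 1802 in intact, 1665, 1798 and 2267 in AAV-GFP and 2052, 2157 and 2346 in AAV-SIRT3 libraries. AAV-GFP replicate 2, at 2267, was the only AAV-GFP library above the lowest AAV-SIRT3 library. The log2 difference was 0.31 ± 0.06 from intact (adjusted p = 0.00118) and 0.23 ± 0.06 from AAV-GFP (adjusted p = 0.105).

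The other large subunit genes named by the rule, all with bacterial counterparts, did not pass the threshold against intact. Mrpl3, mutated in human mitochondrial disease, ran 3274, 3348 and 3498 in intact, 3319, 3345 and 3620 in AAV-GFP and 3353, 3510 and 3702 in AAV-SIRT3 libraries, a difference from intact of 0.06 ± 0.04 (adjusted p = 0.231). The 3 with the lowest level per kilobase were Mrpl17 at 0.12 ± 0.05 (adjusted p = 0.0696), Mrpl19 at 0.11 ± 0.05 (adjusted p = 0.113) and Mrpl47 at 0.14 ± 0.06 (adjusted p = 0.0968). In each of them the groups overlapped.

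**Figure D2:**
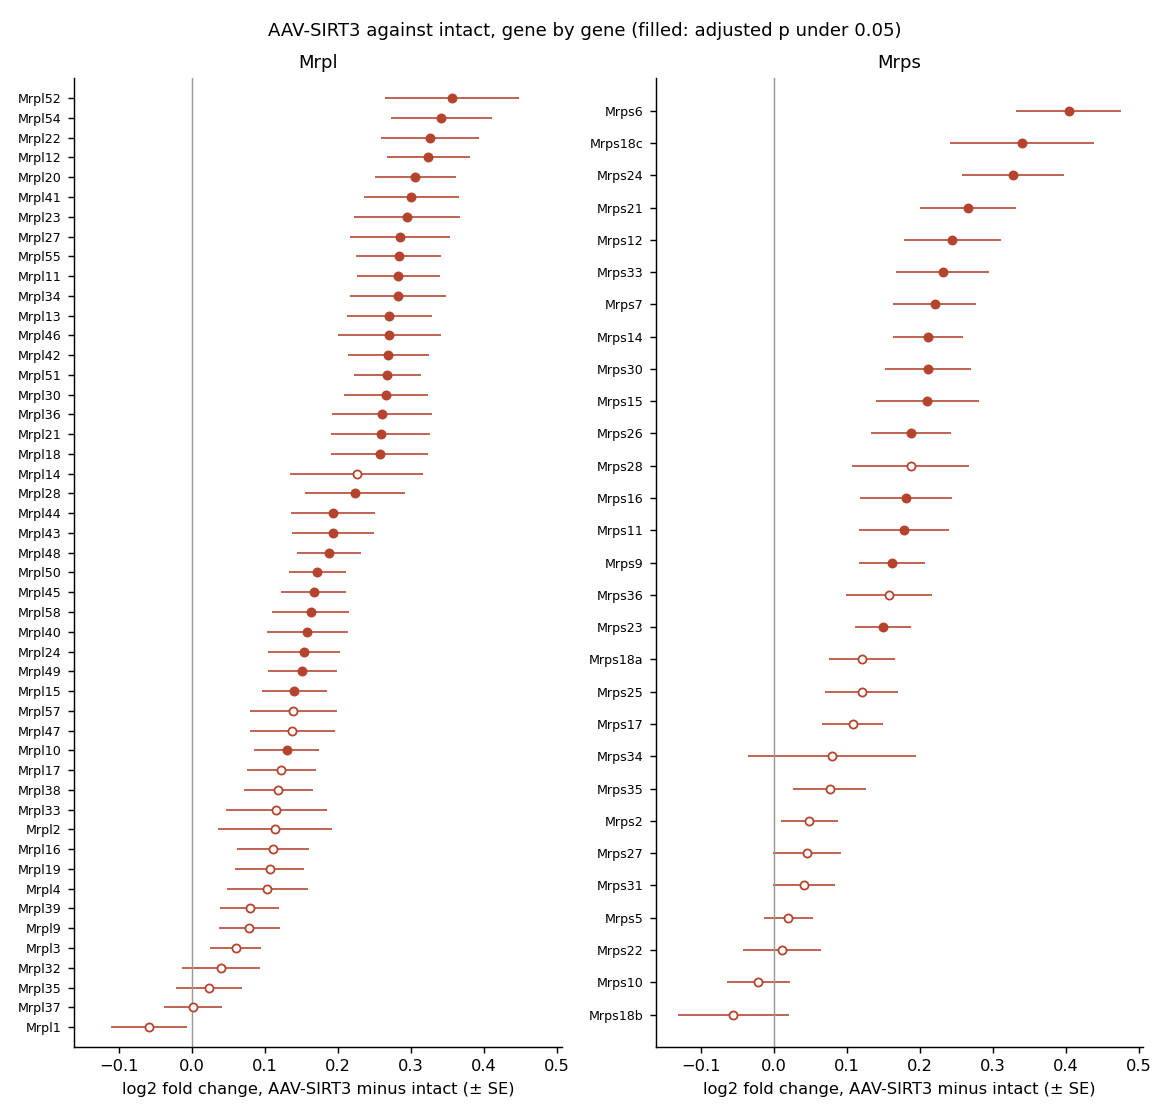
Log2 fold change of AAV-SIRT3 over intact for each of the 48 Mrpl and 29 Mrps genes tested, with bars for the SE and filled points for adjusted p under 0.05. All 46 filled points lie to the right of 0, and the largest are Mrps6 (0.40) and Mrpl52 (0.36).

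In the small subunit, which reads the message, the largest rise was that of Mrps6 (chr16:92058270-92112227, plus strand). It ran 583.7, 657.3 and 722.9 in intact, 645.2, 746.1 and 842.7 in AAV-GFP and 782.7, 858.7 and 962.1 in AAV-SIRT3 libraries. AAV-SIRT3 did not overlap intact, and the rise was 0.40 ± 0.07 (limma adjusted p = 0.0011). Mrps24, the counterpart of a bacterial protein at the messenger entry, ran 672.3, 746.5 and 810.8 in intact, 754.9, 781.6 and 1000 in AAV-GFP and 843.9, 951.3 and 1033 in AAV-SIRT3 libraries and rose by 0.33 ± 0.07 (adjusted p = 0.00285). Mrps12, a protein of the decoding centre, ran 1295, 1405 and 1519 in intact and 1539, 1673 and 1831 in AAV-SIRT3 libraries without overlap and rose by 0.24 ± 0.07 (adjusted p = 0.0127). Its AAV-GFP values, 1414, 1543 and 1936, overlapped both.

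Mrps21, the most abundant Mrps gene per kilobase, rose by 0.27 ± 0.07 (adjusted p = 0.00685). Mrps16, mutated in a human disorder of mitochondrial translation, ran 936, 995.6 and 1094 in intact, 913.6, 1014 and 1143 in AAV-GFP and 1016, 1126 and 1288 in AAV-SIRT3 libraries. Its rise of 0.18 ± 0.06 lay close to the threshold (adjusted p = 0.0423) and was called in 10 of 18 fits without 1 library and neither with quantile normalisation nor with no filter on low values, with overlap between the groups.

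Several small subunit genes did not differ detectably. Mrps5, linked to lifespan in worms and in mouse strains, ran 3607, 3680 and 3815 in intact, 3461, 3680 and 3806 in AAV-GFP and 3528, 3776 and 3865 in AAV-SIRT3 libraries, a difference from intact of 0.02 ± 0.03 (adjusted p = 0.713). Mrps22, found only in mitochondria and mutated in human disease, ran 1110, 1166 and 1370 in intact, 1118, 1218 and 1338 in AAV-GFP and 1140, 1199 and 1241 in AAV-SIRT3 libraries, with a difference of 0.01 ± 0.05 (adjusted p = 0.906). Mrps34, with the largest spread within groups, had 0.08 ± 0.12 (adjusted p = 0.661), Mrps35 had 0.08 ± 0.05 (adjusted p = 0.291) and Mrps25 had 0.12 ± 0.05 (adjusted p = 0.091).

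Of the 3 Mrps18 paralogs, related proteins that sit at different places in the particle, 1 was called against intact. Mrps18c, the small subunit form with a bacterial counterpart, ran 349.5, 401.2 and 498.2 in intact, 392.2, 449.9 and 509.7 in AAV-GFP and 440.5, 508.2 and 662.7 in AAV-SIRT3 libraries and rose over intact by 0.34 ± 0.10 (adjusted p = 0.018). Its spread within groups was one of the 3 largest. Mrps18b ran 456.3, 473.6 and 553.5 in intact, 445.5, 459.7 and 532.3 in AAV-GFP and 383, 479.4 and 521.9 in AAV-SIRT3 libraries, with a difference of -0.05 ± 0.08 (adjusted p = 0.647). Mrps18a, whose protein belongs to the large subunit despite its symbol, ran 1919, 1989 and 2032 in intact, 1924, 2044 and 2346 in AAV-GFP and 2061, 2122 and 2364 in AAV-SIRT3 libraries. AAV-SIRT3 and intact did not overlap for Mrps18a, yet its 0.12 ± 0.05 missed the threshold (adjusted p = 0.0598). The differences among the paralogs' changes were not tested.

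Mrps30, which also carries a small subunit symbol and sits in the large subunit, ran 900.6, 990.9 and 1044 in intact, 887.4, 1071 and 1091 in AAV-GFP and 1079, 1118 and 1238 in AAV-SIRT3 libraries and rose by 0.21 ± 0.06 (adjusted p = 0.0149). Mrps36 belongs to the alpha-ketoglutarate dehydrogenase complex of the citric acid cycle and not to the ribosome. It ran 981.1, 1045 and 1092 in intact, 905.4, 1105 and 1226 in AAV-GFP and 1059, 1164 and 1216 in AAV-SIRT3 libraries, with 0.16 ± 0.06 over intact (adjusted p = 0.0606).

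**Figure D3:**
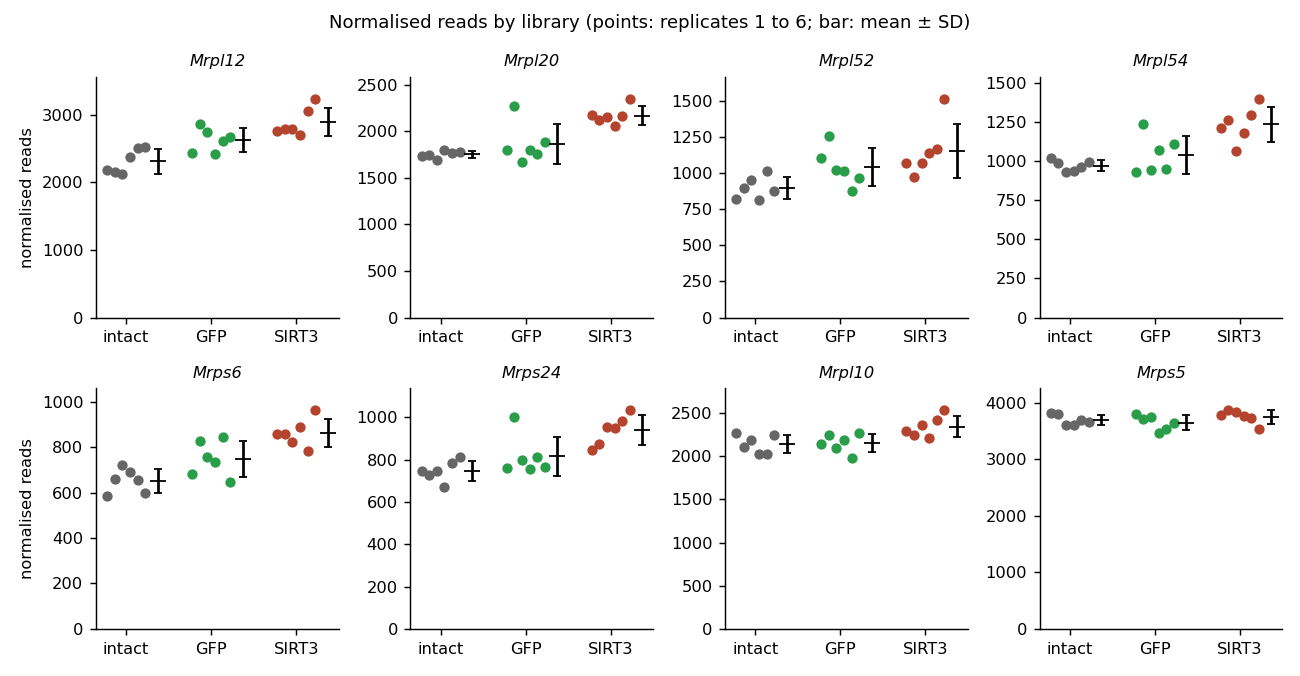
Normalised reads in each library for 8 members in intact, AAV-GFP (GFP) and AAV-SIRT3 (SIRT3) mice, with axes starting at 0 and bars for the mean ± SD of 6. The AAV-SIRT3 points stand above the intact points for Mrpl12, Mrpl20, Mrpl54, Mrps6 and Mrps24, overlap them for Mrpl52 and Mrpl10, and lie level with them for Mrps5 (0.02 on the log2 scale).

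Grouped by descent, 17 of 30 Mrpl members with a bacterial counterpart rose against intact (median log2 fold change 0.19) and 14 of 18 found only in mitochondria (median 0.18), beside 11.3% of all genes called higher. Among the Mrps symbols these were 11 of 16 (median 0.20) and 4 of 12 (median 0.10), the 12 including Mrps18a and Mrps30. The difference between these classes was not tested. Of all members, 42 overlap another annotated gene, 36 of them on the opposite strand, and the strand setting of the counting is not given. On the same strand 13 overlap a gene, which no strand setting separates. Those include Mrps6, Mrps24 and Mrps18c, and what the overlap adds to their values was not tested. Among the 36 members tested that overlap no gene, 20 rose, beside the same 11.3% of all genes. The 6 annotated pseudogenes of members in the table reached at most 18.1 normalised reads in any library, well below every tested member.

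A neighbour arrangement was common among the members. Of the 78 members, 19 (24.4%) start within 1000 bases of the start of a protein-coding gene that runs the other way. The share was 7.58% of the 19972 protein-coding genes of the table with a gene model, whether or not they passed the filter on low values. Genes whose starts overlap far were not counted in either share. Mrpl46 and Mrps11, which overlap each other on opposite strands and both rose over intact (limma adjusted p = 0.00986 and 0.0422), were left out for that reason. Of the 19 members 11 rose against intact, and of the 58 tested without such a neighbour 35. Of the 19 partners 6 rose against intact and 0 fell (11.3% of all genes were called higher). Mrpl36 rose by 0.26 ± 0.07 (adjusted p = 0.0102), and its neighbour Ndufs6, a complex I subunit whose annotated start overlaps it by 29 bases, rose by 0.38 ± 0.07 (adjusted p = 0.000927). Mrpl54 rose while its neighbour Apba3, 26 bases away, had 0.13 (adjusted p = 0.146). For Mrps12 and Sars2, the mitochondrial seryl-tRNA synthetase 172 bases away, the values were 0.24 and 0.05, the latter with adjusted p = 0.712.

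Other genes of the mitochondrial translation system followed the members only in part, and their counts of rises are to be read beside the 11.3% of all genes called higher. Of 5 ribosomal proteins with other symbols, 2 rose over intact. Chchd1 went from 1416 ± 57.0 to 1716 ± 154 normalised reads (SD, n = 6, log2 fold change 0.27 ± 0.06, limma adjusted p = 0.00324) and Aurkaip1 from 2381 ± 130 to 2947 ± 195 (0.31 ± 0.06, adjusted p = 0.00117). Dap3 (0.09, adjusted p = 0.196), Gadd45gip1 (0.13, adjusted p = 0.386) and Ptcd3 (-0.09, adjusted p = 0.109) did not pass.

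Both mitochondrial ribosomal RNAs rose, mt-Rnr1 by 0.37 ± 0.08 (adjusted p = 0.00259) and mt-Rnr2 by 0.39 ± 0.07 (adjusted p = 0.0013), in libraries selected for poly-A. Of 29 assembly and ribosomal RNA modification genes, 6 rose (20.7%) and 0 fell, led by Mpv17l2, an assembly factor of the large subunit (0.38 ± 0.07, adjusted p = 0.00185), and Mrm2, a methyltransferase for the large ribosomal RNA (0.29 ± 0.07, adjusted p = 0.00713). Among 15 translation factors and regulators, Tufm, the elongation factor that brings tRNA, rose by 0.16 ± 0.05 (adjusted p = 0.0411) while Lrpprc, which stabilises mitochondrial messages, changed by -0.14 ± 0.04 (adjusted p = 0.00883) and Mtfmt, which formylates the initiator tRNA, by -0.22 ± 0.07 (adjusted p = 0.0249). Of 17 mitochondrial aminoacyl-tRNA synthetases 0 changed in limma, with 4 at an unadjusted p under 0.05. Of 13 mitochondrial messages 2 rose (15.4%, near the share of all genes), mt-Nd4 (0.15 ± 0.05, adjusted p = 0.0429) and mt-Nd6 (0.16 ± 0.05, adjusted p = 0.0382).

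The cytosolic ribosomal proteins and complex I rose more often than the members. Of 82 cytosolic ribosomal protein genes tested 75 rose over intact (median 0.29) and of 38 nuclear complex I genes 35 (median 0.27), with 0 lower in either. For AAV-SIRT3 against AAV-GFP 0 genes of any of these groups were called, and for AAV-GFP against intact the calls were 2 cytosolic ribosomal proteins. Differences between the gene groups were not tested.

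**Figure D4:**
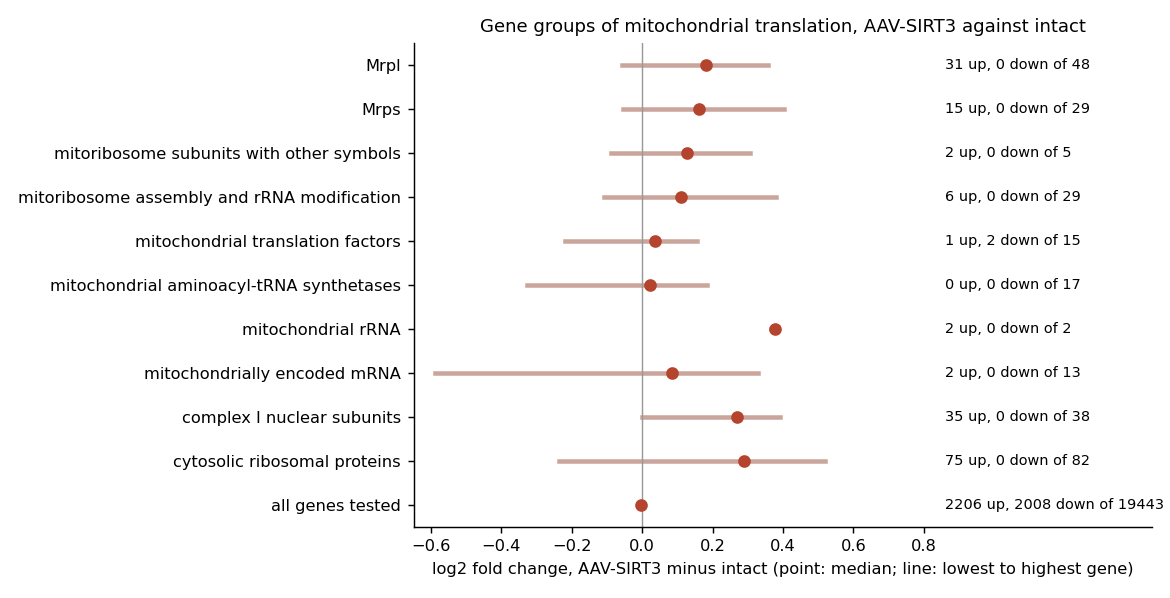
Log2 fold change of AAV-SIRT3 over intact by gene group, with a point for the median, a line from the lowest to the highest gene (medians only for all genes tested) and the number of genes called up or down. Mrpl and Mrps (medians 0.18 and 0.16) lie between the synthetases (0.02) and the cytosolic ribosomal proteins (0.29).

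The members' level moved with a trend in transcript length that differed between libraries. The members tested have a median transcript length of 1280 bases, against 2682 for all genes tested. Of the 39 with transcripts no longer than that median 27 rose over intact, beside 19.9% of all tested genes of that length, and of the 38 longer ones 19 rose, beside 9.58%. The Spearman correlation across genes between a library's deviation from the gene means and transcript length ran from 0.10 to 0.20 in intact, from -0.33 to 0.13 in AAV-GFP and from -0.33 to -0.01 in AAV-SIRT3 libraries. AAV-GFP replicate 2 and AAV-SIRT3 replicate 6 were the lowest of their groups. They were also the highest library of their group for 59 and 43 of 77 members.

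After a smooth trend with length and GC content was removed from each library, 54 members rose over intact and 0 fell (17.4% of all genes higher), and 43 of the 46 were among them. The mean over all members then ran from -0.03 to 0.04 in intact, 0.03 to 0.19 in AAV-GFP and 0.15 to 0.21 in AAV-SIRT3 libraries, so intact and AAV-SIRT3 still did not overlap. Without AAV-GFP replicate 2 and AAV-SIRT3 replicates 5 and 6, a choice made after seeing the data, 31 of the 46 were called (7.66% of all genes higher), and of the named rises Mrpl10, Mrpl44, Mrps16 and Mrps18c were not.

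**Figure D5:**
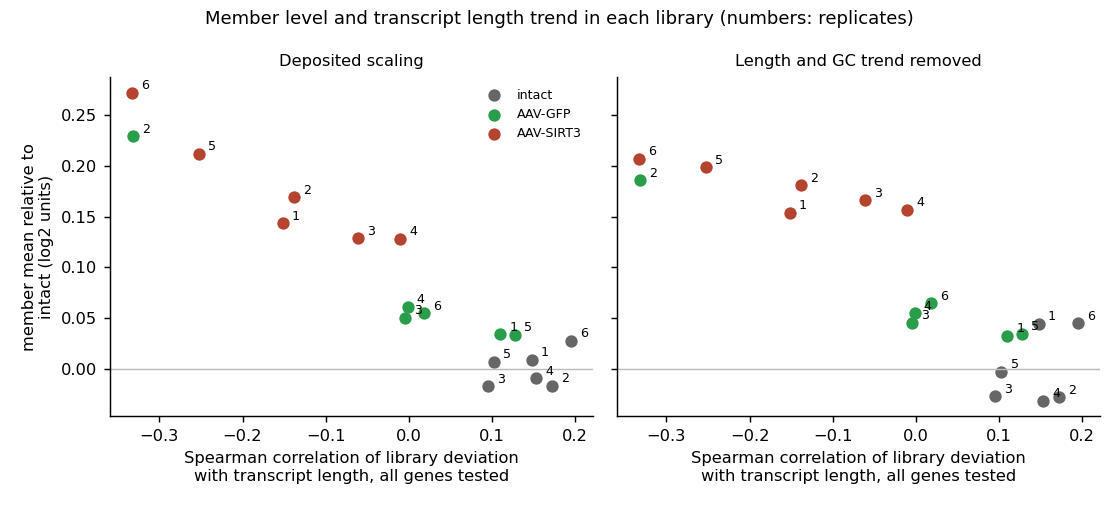
Mean log2 level of the 77 members relative to intact, before and after removal of each library's trend with transcript length and GC content, against the Spearman correlation of that library with transcript length over all genes tested, with a point per library and numbers for replicates. AAV-GFP replicate 2 and AAV-SIRT3 replicate 6 lie at -0.33 on the horizontal axis in both panels, and AAV-SIRT3 libraries lie above all intact libraries in both.

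The comparison of the AAV groups changed when 1 library was left out. Without AAV-GFP replicate 2, 11 members were called higher in AAV-SIRT3 than in AAV-GFP mice and 0 lower (2.36% of all genes higher). They were Mrpl54 (0.30 ± 0.06, limma adjusted p = 0.0176), Mrpl20 (0.28 ± 0.04, adjusted p = 0.00289), Mrpl41 (0.27 ± 0.06, adjusted p = 0.0181), Mrps24 (0.27 ± 0.06, adjusted p = 0.0202), Mrpl30, Mrpl13, Mrpl28, Mrpl55, Mrps26, Mrps7 and Mrps14, the last 7 being named after their values were seen. AAV-GFP replicate 2 was the highest library of its group for 59 of 77 members, so leaving it out raises this difference for those members. Without AAV-SIRT3 replicates 5 and 6 as well, a choice made after seeing the data, 1 member was called. With all libraries and the length and GC trend removed, Mrpl20 (adjusted p = 0.0328) and Mrpl13 (adjusted p = 0.0392) were called (1.01% of all genes higher).

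Markers of other cells moved between the groups as well. Of 4 thalamic neuron markers 3 were higher in AAV-SIRT3 than in intact mice (Prkcd, Tcf7l2 and Lef1), and their summed level ran from 29130 to 57140 in intact, 47530 to 55630 in AAV-GFP and 46390 to 60220 in AAV-SIRT3 libraries. With a thalamic score as covariate 20 members were called against intact (3.7% of all genes higher) and the median log2 fold change was 0.17. Among the named rises, Mrpl10, Mrpl44, Mrpl45, Mrps12, Mrps16, Mrps18c and Mrps30 were not called with that covariate. Of 8 microglial markers 5 were higher (summed 12240 to 14220 in intact, 13620 to 16170 in AAV-SIRT3), and of 4 anterior pituitary markers 4 were lower (503 to 5250 and 56.2 to 592.3). Of 4 endothelial markers 2 were lower (4382 to 6024 and 3479 to 5593) and of 4 choroid plexus markers 2 (545.3 to 45510 and 281.9 to 1361). The GABAergic marker Pvalb (0.43 ± 0.07, adjusted p = 0.000837) and the oligodendrocyte marker Mobp (0.18 ± 0.05, adjusted p = 0.0157) were higher, 1 of 4 and 1 of 5 in their lists. The median of the GABAergic list was -0.006 with 2 of 4 above 0, and that of the oligodendrocyte list 0.11 with 4 of 5 above 0. In AAV-GFP against intact, Slc6a3, the dopamine transporter, was lower (-0.44 ± 0.10, adjusted p = 0.0263, median of 9 dopaminergic markers -0.31), and the astrocyte marker Gfap (0.50 ± 0.12, adjusted p = 0.0388), Lef1 (0.72 ± 0.18, adjusted p = 0.0378) and 4 of 8 microglial markers were higher. All 4 pituitary markers were lower there too. Between the AAV groups 1 of 8 microglial markers, Clec7a, was lower in AAV-SIRT3 mice (-1.67 ± 0.30, adjusted p = 0.0168). The median over the 8 was -0.09, and 3 of them lay above 0. No marker of the other lists was called between the AAV groups. At an unadjusted limma p under 0.05, 4 of 4 endothelial (median -0.37) and 2 of 5 astrocyte markers (median -0.05) were lower. At that level 4 of 9 dopaminergic (median 0.24), 3 of 4 GABAergic (median 0.19) and 1 of 5 oligodendrocyte markers (median 0.04) were higher, beside 8.13% of all genes. No marker was at 0 in all libraries. Apart from the thalamic score, the part of these cells in the members' values was not tested.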

How the data were processed

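Per the labels' protocols, libraries were stranded, poly-A selected and read as pairs. The submitters' processing notes name HISAT2 2.1.0, DESeq2 1.34.0 and build mm10, and the annotation and the strand setting of the counting are not given in the sources used here. The deposited signal values are, per the file name, HTSeq counts normalised by DESeq2. All 18 columns were matched to samples by name, with 0 left over. Times a size factor per library, 100% of the values above 0 came out as whole reads (tolerance 1e-06 reads), a weaker proof for intact 4 and AAV-SIRT3 4, whose factors lie near 1. All 45 replicate pairs differed beyond sampling noise (chi-square per degree of freedom 8.26 to 37.2). No molecular identifiers are named, so reads can repeat a molecule, and p-values measure the spread between these libraries.

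In R 4.3.3 with limma 3.58.1, log2(value + 1) was fitted in one model of 3 groups, with the prior variance following expression, for the 19443 genes that reached 10 in 6 or more of 18 libraries, with Benjamini-Hochberg adjustment over all genes at 0.05. Fold changes are on this scale and understate those of low genes. The procedure was tested on simulated data. Lengths, overlaps and neighbours are from GENCODE M21, with 1 transcript per gene, and all 78 members matched. The length and GC fits used 18823 genes. Alternatives included TMM, quantile scaling, pseudocounts 0.5 and 10, other filters, edgeR 4.0.16 and DESeq2 1.42.0 on recovered reads, 2-group fits, a replicate block, length and GC trends, a thalamic covariate and leaving out each library. Members named were the 4 Mrpl and 3 Mrps with the largest called change, the 5 highest and 5 lowest per kilobase, the 3 with the largest spread and 15 set by role. The members and lists were chosen with earlier results of these data known, and the split by descent was made after them, from general knowledge of ribosome structures.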

Additional observations from a re-analysis of the deposited data

Results flagged for a closer look

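Of 96 sets of 6 values examined for a library far from the others, 14 met the criterion, where chance gives about 1 in 20 (4.8), and 6 of the 14 were AAV-GFP replicate 2. That library had the highest mean level of its group for the Mrpl genes (0.24 on the log2 scale, the next at 0.07) and the Mrps genes (0.21, the next at 0.06). It was also the far library for Mrps24 (1000 normalised reads, the next at 811.5), Mrps18a (2346, the next at 2070), Mrpl20 (2267, the next at 1883) and Mrpl45 (2406, the next at 2176). AAV-SIRT3 replicate 6 was far above its group for Mrpl52 (1511, the next at 1165) and Mrps18a (2364, the next at 2164).

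The other 6 were spread over libraries. Mrpl17 was low in intact replicate 5 (1344, the next at 1479) and in AAV-SIRT3 replicate 4 (1486, the next at 1614). Mrpl19 was low in AAV-SIRT3 replicate 2 (1231, the next at 1356), Mrpl47 in intact replicate 4 (737.3, the next at 860.3) and Mrpl45 in intact replicate 3 (1914, the next at 2030). Mrps22 was high in intact replicate 1 (1370, the next at 1201).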

How the results depend on the processing

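No member was called lower in any of the 3 comparisons under any of the 32 settings run. Against intact, the AAV-SIRT3 count was 46 and ran from 35 (without AAV-SIRT3 replicate 5) to 48 when each library was left out, and 18 members were called in every setting. The thalamic covariate gave 20. Between the AAV groups the count of 0 became 3 with DESeq2 (Mrpl54, Mrpl20 and Mrpl30), 2 with the length and GC trend removed and 1 without AAV-GFP replicate 2 and AAV-SIRT3 replicates 5 and 6 (an added choice), and ran from 0 to 11 when each library was left out, the 11 coming without AAV-GFP replicate 2. For AAV-GFP against intact it became 3 with DESeq2 and ran from 0 to 1 when each library was left out, the 1 coming without AAV-GFP replicate 1. The cause of the DESeq2 and thalamic changes was not tested. The share of all genes called is given above for the main fit and for some of these settings only. Under the others, such as most fits without 1 library, the counts describe the members alone.

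Median log2 fold changes of the members ran from 0.14 to 0.19 (AAV-SIRT3 against intact), 0.07 to 0.13 (against AAV-GFP) and 0.04 to 0.09 (AAV-GFP against intact). The sign turned for values near 0. Mrps22 against intact was -5.689e-05 with edgeR, -0.00602 without the 3 libraries above and from -0.00833 (without intact replicate 2) to 0.0522 with each library left out, with -0.00151 without intact 3 and -0.00273 without intact 6. Mrps18b ran from -0.0859 to 0.00321, the latter without AAV-SIRT3 replicate 4. Mrpl10 in AAV-GFP against intact was -0.0162 with the trends removed, from -0.00807 to 0.0318 with each library left out (-0.00807 and -0.00765 without intact replicates 4 and 5, -0.00377 without AAV-GFP replicate 2 (also without the 3 libraries) and -0.00666 without AAV-GFP replicate 6).

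The replicate block gave 43 members, all among the 46, and 0 in the other comparisons. The share of all genes called with that block is not given here. Same-numbered libraries had correlated deviations over 0.1 in 1 of 18 pairs (range -0.0953 to 0.175), and 1 library's best partner shared its number. These correlations gave no sign of pairing by number. They do not show whether same-numbered libraries shared a handling step.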
